A study of Rattus norvegicus with 8 samples.

Results

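The genes described are 10 members of the hypoxia response and of its control by hypoxia-inducible factor (HIF), measured in N27 cells, an immortalised line derived from embryonic rat midbrain and used as a model of dopamine neurons. The genes were chosen by the name that the array's annotation gives to their probes: Hif1a, Egln1 and Egln3 of HIF control, and Adm, Angptl4, Ankrd37, Bhlhe40, Ndrg1, Bnip3 and Car9, which are known as hypoxia-responsive. They are 10 of the 16908 genes with a probe above background. RNA was measured on 8 single-colour arrays, 2 for each of 4 groups: cells given 150 µM Mn (manganese) for 48 h, cells given 250 µM MPP+ for 48 h, cells given 3-NPA, and control cells. The labels used here state no dose or time for 3-NPA and no vehicle for the controls. They do not say whether the 2 arrays of a group came from separate cultures, so every p-value measures the spread between these arrays, which may be technical.

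In cells with enough oxygen, the prolyl hydroxylases of the Egln family mark the HIF alpha subunit, the von Hippel-Lindau protein binds the marked subunit, and the proteasome removes it. When oxygen falls, the alpha subunit escapes, pairs with Arnt and binds hypoxia response elements, whose core reads ACGTG or GCGTG, near its target genes. The level of Hif1a is set largely on the protein, whereas the arrays measured RNA only. MPP+ is known as an inhibitor of respiratory complex I, and 3-NPA, the usual abbreviation of 3-nitropropionic acid, as an inhibitor of succinate dehydrogenase.

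Levels are given as multiples of the 75th percentile of each array's own signals, so that a level of 1 is the signal at that percentile. They compare arrays for 1 probe and not probes with each other. Each of the 10 genes had 1 probe, and all 10 probes were well above background on all 8 arrays. Adm and Ankrd37 had 10 spots per array and the other genes had 2. Between 32711 and 41354 of 58717 spots per array were well above background, with 32711 to 34060 on the control arrays, the lowest range of the 4 groups. The arrays shared 1 slide and 1 scan, but each group had its own positions on the slide and the 3-NPA arrays were extracted in a later run, so position, run and treatment cannot be told apart. In a culture, fewer cells of a type and less RNA per cell cannot be told apart either.

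Of the dopaminergic markers on the array, 3 of 9 (Th, Nr4a2 and Slc18a2) were above background on all 8 arrays, while the dopamine transporter Slc6a3 and Foxa2 were above it on none. The neuronal markers Tubb3 and Map2 were above background on all 8 arrays and 5 of 7 neuronal markers on none. Fibroblast markers, of which 3 of 5 were measured with Dcn and Lum on no array, summed to 1.13 and 1.06 with Mn, 0.384 and 0.333 with MPP+, 1.45 and 1.43 with 3-NPA and 0.769 and 0.669 in control cells. Of these, only Col1a1 was above background on both control arrays, while Col1a2 and Pdgfra were not. With Mn their median log2 fold change was -0.46 although the sum rose. The neuronal pair summed to 2.70 and 2.00 with Mn, 2.37 and 2.21 with MPP+, 4.75 and 4.26 with 3-NPA and 1.60 and 1.67 in control cells. The pair did not move alike. Against control, 1 of the 2 was called higher with 3-NPA and 1 lower, so the sum does not stand for both. With Mn their median log2 fold change was -0.08. The neural progenitor markers Nes and Vim, with Sox2 and Pax6 above background on no array, summed to 20.4 and 21.1 with Mn, 15.0 and 15.6 with MPP+, 15.4 and 14.8 with 3-NPA and 12.9 and 11.2 in control cells. Endothelial markers, of which 3 of 5 were measured with Cldn5 and Tek on no array, summed to 0.105 and 0.106 with Mn, 0.118 and 0.105 with MPP+, 0.247 and 0.255 with 3-NPA and 0.137 and 0.103 in control cells. None of the 3 measured, Cdh5, Kdr and Pecam1, was above background on both control arrays. Of the microglia and blood markers, Aif1, Cx3cr1 and Itgam were above background on all 8 arrays and Ptprc on none, and the 4 measured summed to 0.401 and 0.441 with Mn, 0.326 and 0.265 with MPP+, 0.493 and 0.481 with 3-NPA and 0.285 and 0.449 in control cells. The part of these markers in the results was not tested.

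The promoters of 5 genes are shown because the genes shared calls against control: Adm, Angptl4 and Ankrd37 were lower with both MPP+ and 3-NPA, and Bhlhe40 and Egln3 were higher with Mn. They did not share every call, as Adm was also lower with Mn and Egln3 also higher with 3-NPA. Each promoter is the 250 bases before the annotated start, 5′ to 3′ on the gene's own strand, from RefSeq on the GRCr8 build, which is not the build of the array's probes. Capitals mark ACGTG or GCGTG, which on the other strand read CACGT and CACGC. The Adm stretch is chr1:174179950-174180199 on the plus strand, that of Angptl4 is chr7:15258682-15258931 on the minus strand, and that of Ankrd37 is chr16:53001257-53001506 on the plus strand. That of Bhlhe40 is chr4:143174200-143174449 on the plus strand and that of Egln3 is chr6:77411016-77411265 on the minus strand.
Adm: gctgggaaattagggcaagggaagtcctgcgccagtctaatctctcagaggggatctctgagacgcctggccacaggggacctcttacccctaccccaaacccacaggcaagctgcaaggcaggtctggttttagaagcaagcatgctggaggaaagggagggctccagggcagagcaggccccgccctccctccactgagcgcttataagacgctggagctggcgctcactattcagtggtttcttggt
Angptl4: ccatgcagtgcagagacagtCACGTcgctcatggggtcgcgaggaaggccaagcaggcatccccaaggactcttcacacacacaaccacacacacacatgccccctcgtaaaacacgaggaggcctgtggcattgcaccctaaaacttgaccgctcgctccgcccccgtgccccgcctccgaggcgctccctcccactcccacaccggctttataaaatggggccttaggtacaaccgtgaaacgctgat
Ankrd37: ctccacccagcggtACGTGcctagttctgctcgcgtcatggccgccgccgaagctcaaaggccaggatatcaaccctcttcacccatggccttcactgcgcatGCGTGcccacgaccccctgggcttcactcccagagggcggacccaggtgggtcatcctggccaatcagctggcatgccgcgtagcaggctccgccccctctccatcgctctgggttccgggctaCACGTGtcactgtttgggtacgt
Bhlhe40: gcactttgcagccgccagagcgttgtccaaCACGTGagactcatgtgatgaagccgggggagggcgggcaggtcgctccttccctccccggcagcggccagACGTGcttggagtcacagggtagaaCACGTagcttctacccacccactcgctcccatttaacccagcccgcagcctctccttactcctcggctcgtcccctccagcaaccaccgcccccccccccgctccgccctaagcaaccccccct
Egln3: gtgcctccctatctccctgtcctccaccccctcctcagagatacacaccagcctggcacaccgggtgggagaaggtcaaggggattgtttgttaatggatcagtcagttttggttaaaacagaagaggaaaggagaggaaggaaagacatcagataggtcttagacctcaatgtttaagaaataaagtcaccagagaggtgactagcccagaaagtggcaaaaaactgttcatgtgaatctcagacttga

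Of the 33469 promoters of the table, 36.7% held ACGTG or GCGTG on either strand in their 250 bases, against 6 of the 9 promoters found for the 10 genes. Ndrg1 had no entry. Ankrd37, Bhlhe40 and Bnip3 held 4 matches each, Hif1a held 3, Angptl4 and Egln1 held 1 each, and Adm, Egln3 and Car9 held 0. CACGTG, which reads the same on both strands and so counts as 2 overlapping matches of ACGTG, was in 5.6% of all promoters and in 4 of the 9, those of Ankrd37, Bhlhe40, Hif1a and Bnip3. A match is a run of letters and not a shown binding site, and its absence here says only that the letters are not in this window. Both the genes that were lower with MPP+ and those that were higher with Mn included promoters with and without a match.

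**Figure D1:**
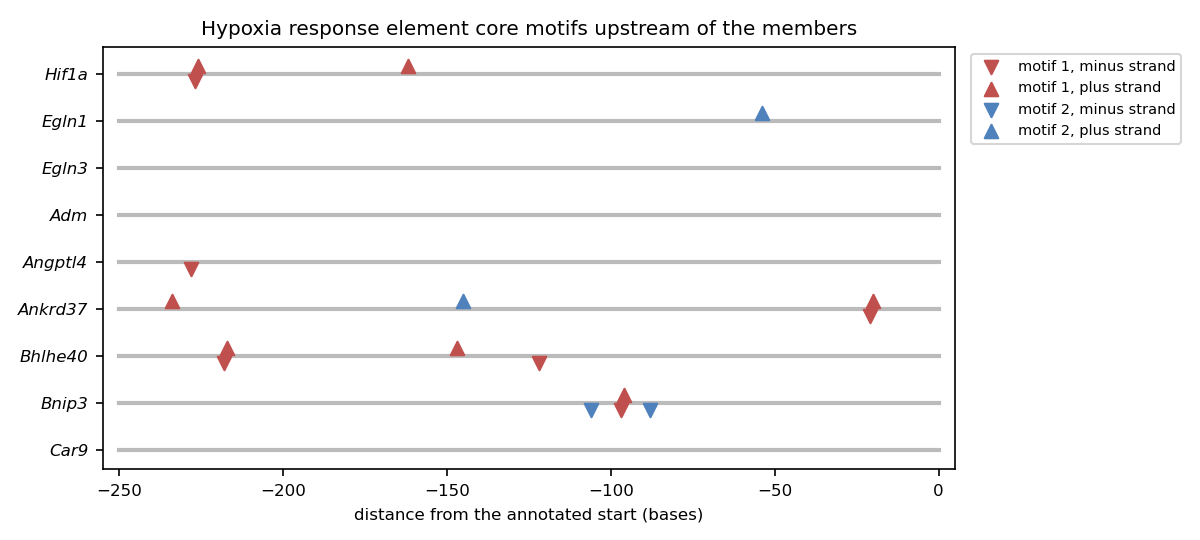
Positions of the hypoxia response element core in the 250 bases before the annotated start of 9 genes, with distance from the start in bases on the horizontal axis. Motif 1 is ACGTG and motif 2 is GCGTG, and upward and downward triangles mark matches on the plus and minus strand of the gene. Ankrd37, Bhlhe40 and Bnip3 have 4 matches each, and Adm, Egln3 and Car9 have 0.

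Of the genes of HIF control, Egln3 was higher with Mn and with 3-NPA, and Hif1a was lower with 3-NPA. Egln1 passed the test in no comparison except between toxins under other scalings of the arrays. Hif1a encodes the oxygen-regulated alpha subunit of HIF-1. Its level was 0.337 and 0.379 with Mn, 0.473 and 0.569 with MPP+, 0.281 and 0.371 with 3-NPA and 0.563 and 0.717 in control cells. The Mn and 3-NPA arrays all lay below both control arrays, while the MPP+ arrays overlapped the control range. With 3-NPA the Hif1a signal was 1.97-fold lower than in control (log2 fold change -0.98 ± 0.19, SE, adjusted p = 0.0110 in limma). With Mn it was 1.78-fold lower, which missed the threshold (-0.83 ± 0.19, adjusted p = 0.0582 in limma), and with MPP+ the log2 fold change was -0.29 ± 0.19 (adjusted p = 0.355 in limma). The 2 spots of this probe on the first Mn array read 0.283 and 0.402, and those on the first 3-NPA array 0.250 and 0.316. Without the first 3-NPA array the call with 3-NPA was lost (-0.78, adjusted p = 0.0591 in limma). The value with Mn passed the threshold with normexp background correction (adjusted p = 0.0492), with dim probes kept (0.0334) and with trend and robust moderation in limma (0.0289).

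Egln1 encodes PHD2, the prolyl hydroxylase that does most of the marking of HIF in normal oxygen. Its level was 0.184 and 0.229 with Mn, 0.142 and 0.147 with MPP+, 0.179 and 0.163 with 3-NPA and 0.172 and 0.158 in control cells. Mn stood above and MPP+ below both control arrays, and 3-NPA overlapped them. The log2 fold changes were 0.32 with Mn, with a 95% interval of -0.00131 to 0.64, -0.19 with MPP+ (-0.51 to 0.13) and 0.05 with 3-NPA (-0.26 to 0.37). Any change within these intervals is compatible with the 2 arrays per group. Directly compared, MPP+ lay below Mn without overlap (-0.51 ± 0.13), which missed the threshold (adjusted p = 0.0656 in limma). With 3-NPA against Mn the value was -0.26 (adjusted p = 0.186 in limma). Under quantile normalization both passed (adjusted p = 0.0472 and 0.0390 in limma). With arrays scaled to their medians, 3-NPA against Mn passed too (-0.48, adjusted p = 0.0305 in limma).

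Egln3 encodes PHD3, the family member that is itself induced by HIF. Its level was 6.24 and 6.09 with Mn, 3.07 and 3.05 with MPP+, 5.25 and 5.09 with 3-NPA and 3.17 and 3.48 in control cells. Mn and 3-NPA lay well above both control arrays and MPP+ just below them. The signal was 1.86-fold higher with Mn (log2 fold change 0.89 ± 0.09, adjusted p = 0.00504 in limma) and 1.56-fold higher with 3-NPA (0.64 ± 0.09, adjusted p = 0.00308 in limma). With MPP+ the log2 fold change was -0.12 ± 0.09 (adjusted p = 0.402 in limma), with a 95% interval of -0.33 to 0.10. Egln3 was thus called with 2 of the 3 toxins, and the direct comparisons separated both of these from MPP+: MPP+ was 2.02-fold lower than Mn (adjusted p = 0.00349 in limma), and 3-NPA was 1.69-fold higher than MPP+ (adjusted p = 0.00226 in limma). Between 3-NPA and Mn the difference was -0.26 ± 0.09 (adjusted p = 0.0786 in limma).

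**Figure D2:**
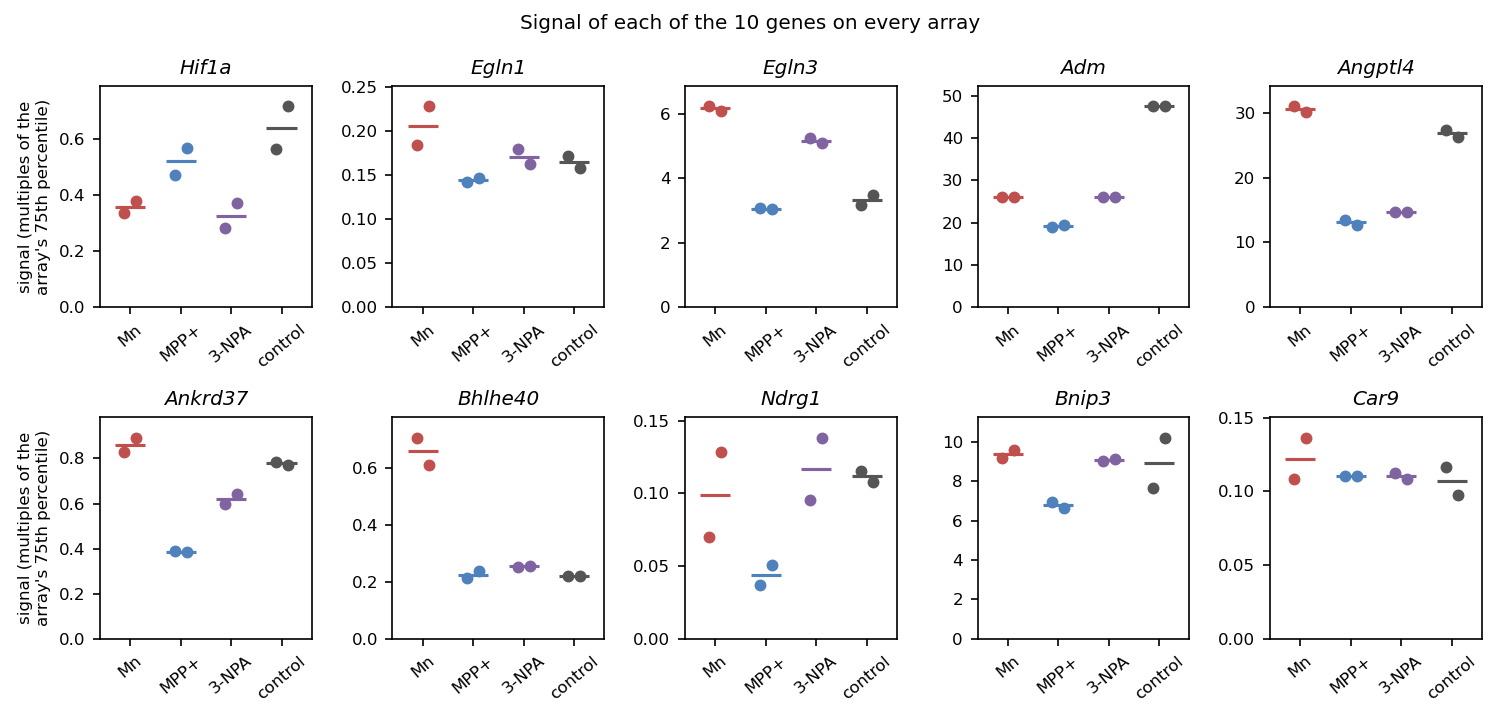
Signal of each of the 10 genes on every array, with the group on the horizontal axis and the multiple of the array's 75th percentile signal on the vertical axis, which starts at 0 and has its own scale in each panel. Points are arrays and bars are the means of 2 arrays. Adm on the control arrays stands at 47.6 and 47.5, above all arrays of the 3 toxins, and Bhlhe40 is high only on the Mn arrays, at 0.705 and 0.609.

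Both secreted factors were lower in treated cells, Adm with all 3 toxins and Angptl4 with MPP+ and 3-NPA. Adm encodes adrenomedullin, a vasodilator peptide that is a classic HIF target. Its level was 26.2 and 26.0 with Mn, 19.0 and 19.5 with MPP+, 26.0 and 26.1 with 3-NPA and 47.6 and 47.5 in control cells. All 6 arrays of treated cells lay below both control arrays, and MPP+ was the lowest group. The signal fell 1.82-fold with Mn (log2 fold change -0.87 ± 0.08, adjusted p = 0.00378 in limma), 2.47-fold with MPP+ (-1.31 ± 0.08, adjusted p = 0.00116 in limma) and 1.82-fold with 3-NPA (-0.87 ± 0.08, adjusted p = 0.000777 in limma). The 3 comparisons share the control arrays, so they are not separate evidence of a high control level. Between the 10 spots of 1 array the log2 signal had an SD of 0.03 to 0.13. That SD covers repeat spots of 1 array and not the spread between arrays or cultures.

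Mn and 3-NPA did not differ in Adm beyond the spread (log2 difference 3-NPA against Mn -0.00223 ± 0.08, adjusted p = 0.987 in limma). MPP+ was 1.36-fold lower than Mn (adjusted p = 0.0259 in limma), and 3-NPA was 1.36-fold higher than MPP+ (adjusted p = 0.00952 in limma). These 2 calls were fragile: the first was lost on leaving out any single array of Mn, MPP+ or 3-NPA (adjusted p 0.0615 to 0.160 in limma), and the second on leaving out any single array of MPP+ or 3-NPA (0.0643 to 0.0748). With arrays scaled to their medians, 3-NPA against MPP+ was 0.18 (adjusted p = 0.207 in limma). The probe for Adm lies at chr1:168382310-168382369 on the plus strand of the rn4 build, per the file headers.

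Angptl4 encodes a secreted inhibitor of lipoprotein lipase that hypoxia, fasting and PPAR ligands induce. Its level was 31.1 and 30.1 with Mn, 13.5 and 12.7 with MPP+, 14.8 and 14.7 with 3-NPA and 27.5 and 26.3 in control cells. MPP+ and 3-NPA lay at about the same low level and Mn just above both control arrays. The signal was 2.05-fold lower with MPP+ (log2 fold change -1.04 ± 0.08, adjusted p = 0.00237 in limma) and 1.82-fold lower with 3-NPA (-0.86 ± 0.08, adjusted p = 0.000973 in limma). With Mn the log2 fold change was 0.19 ± 0.08 (adjusted p = 0.224 in limma). Both inhibitors also differed directly from Mn: MPP+ was 2.34-fold lower (adjusted p = 0.00202 in limma) and 3-NPA 2.07-fold lower (adjusted p = 0.000765 in limma). Between 3-NPA and MPP+ the difference was 0.17 ± 0.08 (adjusted p = 0.170 in limma).

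Among the intracellular hypoxia-responsive genes, Bhlhe40 was called higher with Mn and with neither other toxin, Ankrd37 was lower with MPP+ and 3-NPA, and Ndrg1 was lower with MPP+. Bnip3 passed only under some alternatives, and Car9 passed no test. Ankrd37 encodes an ankyrin repeat protein known as a direct HIF-1 target. Its level was 0.829 and 0.892 with Mn, 0.388 and 0.384 with MPP+, 0.599 and 0.642 with 3-NPA and 0.783 and 0.773 in control cells. The groups did not overlap, with MPP+ lowest, then 3-NPA, then control, and Mn highest. The signal was 2.02-fold lower with MPP+ (log2 fold change -1.01 ± 0.09, adjusted p = 0.00264 in limma) and 1.26-fold lower with 3-NPA (-0.33 ± 0.09, adjusted p = 0.0307 in limma). With Mn it was 0.14 ± 0.09 (adjusted p = 0.357 in limma). The call with 3-NPA was lost on leaving out any single array of 3-NPA, MPP+ or control (adjusted p 0.0662 to 0.163 in limma), and that with MPP+ was not lost under any of the 20 alternatives.

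In the direct comparisons Ankrd37 was 2.23-fold lower with MPP+ than with Mn (adjusted p = 0.00254 in limma) and 1.61-fold higher with 3-NPA than with MPP+ (adjusted p = 0.00332 in limma). It was 1.39-fold lower with 3-NPA than with Mn (adjusted p = 0.0118 in limma), a call that was lost without the first 3-NPA array (0.0837) or the second (0.0527).

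Bhlhe40 encodes a transcriptional repressor of the circadian clock, also called Dec1, which HIF induces. Its level was 0.705 and 0.609 with Mn, 0.213 and 0.236 with MPP+, 0.251 and 0.256 with 3-NPA and 0.219 and 0.219 in control cells. The Mn arrays stood far above the other 6, which lay close together. The rise with Mn was 2.99-fold (log2 fold change 1.58 ± 0.11, adjusted p = 0.00211 in limma), the largest change of the 10 genes against control. With MPP+ the log2 fold change was 0.03 ± 0.11 (adjusted p = 0.857 in limma) and with 3-NPA 0.21 ± 0.11 (adjusted p = 0.172 in limma). Bhlhe40 was 2.92-fold lower with MPP+ than with Mn (adjusted p = 0.00204 in limma) and 2.58-fold lower with 3-NPA than with Mn (adjusted p = 0.000749 in limma).

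Ndrg1 encodes a stress-responsive cytoplasmic protein whose RNA rises in hypoxia in many cell types. Its level was 0.0700 and 0.128 with Mn, 0.0372 and 0.0505 with MPP+, 0.0957 and 0.138 with 3-NPA and 0.116 and 0.108 in control cells. Only MPP+ lay apart from control, and replicate arrays of Mn and of 3-NPA differed widely. The signal was 2.58-fold lower with MPP+ than in control (log2 fold change -1.36 ± 0.33, adjusted p = 0.0459 in limma) and 2.65-fold higher with 3-NPA than with MPP+ (1.41 ± 0.33, adjusted p = 0.0234 in limma). The first call was lost on leaving out either control array, either MPP+ array or either 3-NPA array (adjusted p 0.0690 to 0.204 in limma), and in arrays scaled by quantiles (0.0556) or medians (0.0527). The second was lost on leaving out either MPP+ or either 3-NPA array (0.0512 to 0.119). With Mn the log2 fold change was -0.24 ± 0.33 and with 3-NPA 0.04 ± 0.33 (adjusted p = 0.684 and 0.927 in limma). The level with MPP+ was low, and its value against control ran from -1.59 to -0.94 over the 20 alternatives.

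Bnip3 encodes a mitochondrial outer membrane protein that promotes mitophagy in hypoxia. Its level was 9.18 and 9.56 with Mn, 6.95 and 6.61 with MPP+, 9.04 and 9.15 with 3-NPA and 7.65 and 10.2 in control cells. MPP+ lay below all other arrays, and the 2 control arrays were farther apart than any other pair. The log2 fold change was 0.08 ± 0.15 with Mn, -0.38 ± 0.15 with MPP+ and 0.04 ± 0.15 with 3-NPA (adjusted p = 0.745, 0.135 and 0.840 in limma). Without the first control array, the one nearer to MPP+, the value with MPP+ was -0.59 (adjusted p = 0.0306 in limma). The value for 3-NPA against MPP+ was 0.42 and missed the threshold with all arrays (adjusted p = 0.0722 in limma). It passed without either control array (0.0164) and also with normexp, quantile normalization, a trended, robust variance or the 4 arrays of the pair alone (adjusted p = 0.0477, 0.0376, 0.0338 and 0.0188 in limma).

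Car9 encodes carbonic anhydrase 9, a membrane enzyme that handles extracellular acid and is widely used as a hypoxia marker. Its level was 0.108 and 0.137 with Mn, 0.110 and 0.111 with MPP+, 0.113 and 0.108 with 3-NPA and 0.116 and 0.0972 in control cells. The 4 groups overlapped. The log2 fold changes against control were 0.19 with Mn (95% interval -0.16 to 0.55), 0.05 with MPP+ (-0.30 to 0.41) and 0.05 with 3-NPA (-0.30 to 0.41). Any change within these bounds is compatible with the arrays, so the level is not shown to be unchanged.

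**Figure D3:**
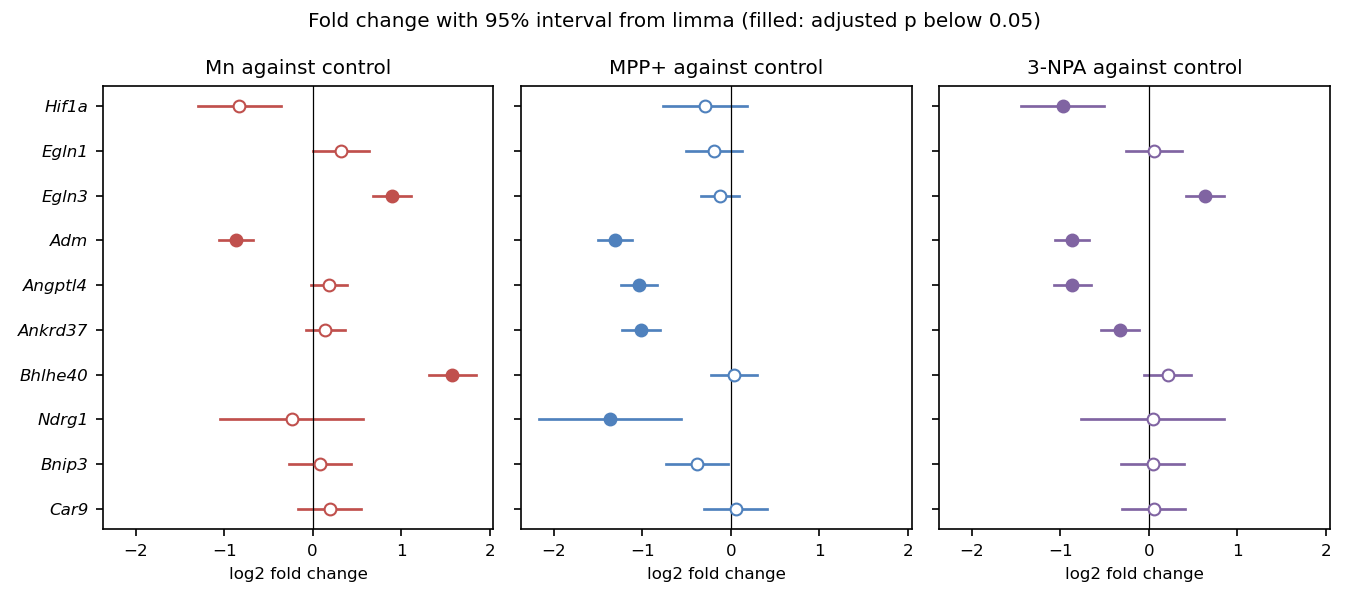
Log2 fold changes of the 10 genes against control with 95% intervals from limma, 1 panel per toxin and 1 row per gene. Filled points passed an adjusted p of 0.05: 3 with Mn, 4 with MPP+ and 5 with 3-NPA. Adm lies left of 0 in all 3 panels, Egln3 right of 0 with Mn and 3-NPA, and Bhlhe40 far right with Mn.

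Counted over the 10 genes, 2 were higher with Mn and 1 lower, where 7.66% of all genes tested passed in either direction, 4.5% higher and 3.16% lower. With MPP+ 0 were higher and 4 lower, where 13.9% of all genes passed, 7.47% higher and 6.47% lower. With 3-NPA 1 was higher and 4 were lower, where 38.3% of all genes passed, 22.3% higher and 16% lower, so that a call with 3-NPA is common on these arrays. Under the normexp background correction the split with Mn was 2 higher and 2 lower. The median log2 fold change of the 10 genes was 0.17 with Mn, -0.34 with MPP+ and 0.04 with 3-NPA, beside -0.02, 0.02 and 0.05 over all genes. Groups did not overlap in 7 of the 10 genes with Mn (50.5% of all genes), 7 with MPP+ (63.5%) and 6 with 3-NPA (71.9%). Without the first 3-NPA array 3 genes passed with 3-NPA in place of 5.

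Between toxins, 5 of the 10 genes were lower with MPP+ than with Mn and 0 were higher, where 9.1% of all genes passed, 4.88% lower and 4.22% higher. The 5 were Adm, Angptl4, Ankrd37, Bhlhe40 and Egln3. With 3-NPA 3 were lower than with Mn and 0 were higher, where 28.6% passed, 11.7% lower and 16.9% higher. The 3 were Angptl4, Ankrd37 and Bhlhe40. With 3-NPA 4 were higher than with MPP+ (Adm, Ankrd37, Egln3 and Ndrg1) and 1 was lower (Hif1a), where 31% passed, 18.1% higher and 12.9% lower. Hif1a was 1.61-fold lower there (log2 difference -0.68 ± 0.19, adjusted p = 0.0420 in limma), a call lost on leaving out any single array of Mn, MPP+ or 3-NPA (0.0540 to 0.200). Leaving out any single MPP+ or 3-NPA array left 2 of these 5 calls between 3-NPA and MPP+, those of Ankrd37 and Egln3. Doses of Mn and MPP+ differed and the dose of 3-NPA is not given in the labels, so these are comparisons between the treatments as applied.

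**Figure D4:**
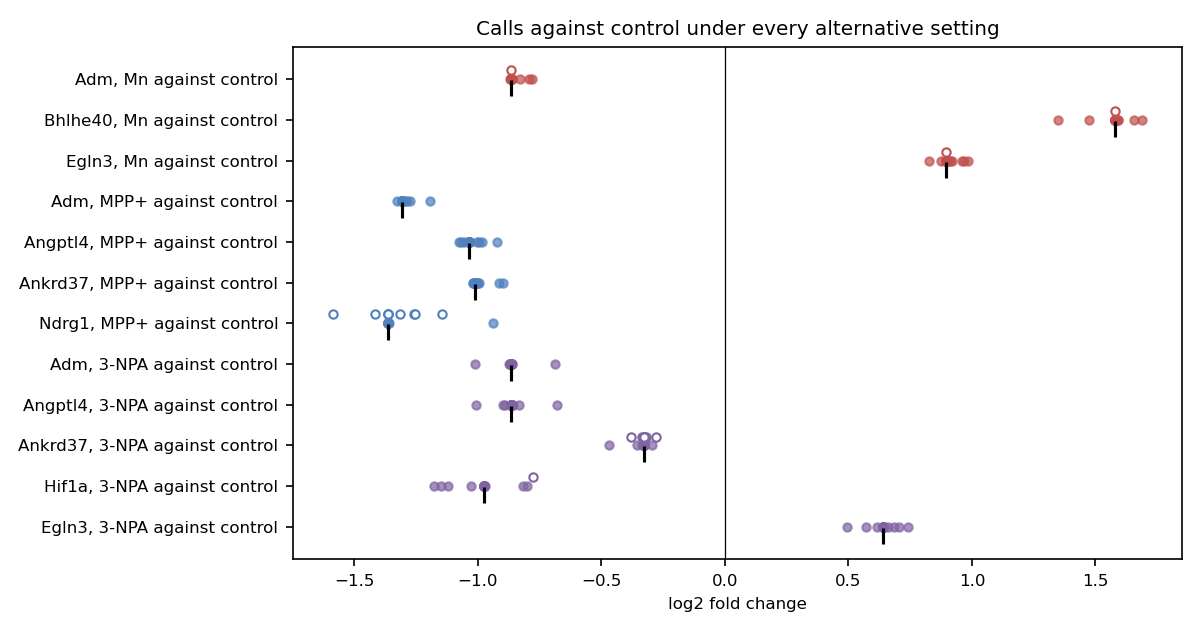
The 12 calls of the 10 genes against control under every alternative processing, with the log2 fold change on the horizontal axis and 1 row per call. The black tick is the reported value, filled points are alternatives that passed an adjusted p of 0.05 and open points, raised, are those that did not. No point crosses 0, and open points gather in the rows of Ndrg1 with MPP+ and Ankrd37 with 3-NPA.

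The patterns of the 3 genes with the widest range of group means, Bhlhe40, Ndrg1 and Adm, were set against those of 11903 other named genes by the Euclidean distance of log2 values over the 8 arrays, each gene taken relative to its control mean. Nearest to Bhlhe40 were Prss23, a serine protease, at a distance of 0.506, with log2 fold changes of 1.46 with Mn, -0.13 with MPP+ and 0.48 with 3-NPA, and Zbed5, at 0.603. Nearest to Adm were Fasn, the fatty acid synthase, at 0.367, with -0.89 with Mn, -1.06 with MPP+ and -0.89 with 3-NPA, and Gja1, which encodes the gap junction protein connexin 43, at 0.471. Nearest to Ndrg1 were Parp9, at 0.796, and Ehd2, at 0.806. The distances are descriptions and carry no test.

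Further genes of HIF control were called against control at shares near those of all genes. Of 16 tested (17 listed), 1 was higher and 0 lower with Mn, 2 higher and 0 lower with MPP+, and 2 higher and 4 lower with 3-NPA, or 6.25%, 12.5% and 37.5% beside 7.66%, 13.9% and 38.3% of all genes. Their median log2 fold changes were -0.04, -0.04 and -0.06. With the normexp background correction the calls were 0 with Mn and 1 higher and 2 lower with MPP+. With 3-NPA 3 remained without the first 3-NPA array and 4 without the second 3-NPA or the second control array, and with MPP+ 1 without either MPP+ array.

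Siah2, a ubiquitin ligase that targets prolyl hydroxylases, is counted among these calls, but it passed the filter on dim probes through the toxin groups alone. Its level was 0.0416 and 0.0426 with Mn, 0.0511 and 0.0592 with MPP+, 0.0450 and 0.0473 with 3-NPA and 0.0139 and 0.0173 in control cells, where it was not well above background. Its signal is therefore set against the lowest one well above background on each control array. On that scale it was 1.02-fold higher with Mn, 1.34-fold with MPP+ and 1.12-fold with 3-NPA. These are no firm minimums: Arnt read 0.0435 on the second control array, above Siah2 with Mn, and was not well above background there. With the normexp correction the log2 fold changes of Siah2 were 0.28, 0.36 and 0.34 in that order (adjusted p = 0.128, 0.0431 and 0.0278 in limma). P4htm, a transmembrane prolyl hydroxylase, was called higher with MPP+ (log2 fold change 0.52, adjusted p = 0.0267 in limma), but at 0.14 not with the normexp correction.

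The other calls of HIF control came with 3-NPA. Rbx1 and Tceb1 (elongin C), both subunits of the ubiquitin ligase that contains the von Hippel-Lindau protein, were lower (-0.89 and -0.67, adjusted p = 0.00102 and 0.00737 in limma). A second probe of Tceb1 gave -0.69. Egln2, another prolyl hydroxylase, was also lower (-0.66, adjusted p = 0.0147 in limma). The remaining lower call was Arnt, the partner of the alpha subunit, at 0.0218 and 0.0263 with 3-NPA and 0.0365 and 0.0435 in control cells. It was not well above background on either control array, so no fold change is given, and the call was lost in 3 of 19 alternatives. Epas1, which encodes HIF-2 alpha, was higher (0.70, adjusted p = 0.0166 in limma). The calls of Egln2 and Epas1 were each lost in 2 of 19 alternatives. Vhl itself missed the threshold, at 0.32 with Mn, 0.01 with MPP+ and 0.27 with 3-NPA. Under quantile normalization it passed with 3-NPA (0.38, adjusted p = 0.0427 in limma).

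Further hypoxia-responsive genes moved in both directions. Of 51 tested (60 listed), 5 were higher and 3 lower with Mn, 4 higher and 12 lower with MPP+, and 9 higher and 15 lower with 3-NPA, or 15.7%, 31.4% and 47.1% beside 7.66%, 13.9% and 38.3% of all genes. Lower calls made up 3.16%, 6.47% and 16% of all genes. Their median log2 fold changes were 0.01, -0.27 and -0.06. With arrays scaled to their medians the split with MPP+ was 6 higher and 5 lower, so the split depends on that choice. Fitting only the 4 arrays of each pair gave 0 calls with Mn, 6 with MPP+ and 21 with 3-NPA. Leaving out single arrays left as few as 5 calls with Mn (without either Mn or either MPP+ array), 6 with MPP+ (without either MPP+ array) and 14 with 3-NPA (without the second 3-NPA array).

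Vegfa, the angiogenic growth factor and a standard HIF target, went the opposite way to Adm. Its level was 6.22 and 5.25 with Mn, 6.27 and 6.04 with MPP+, 7.54 and 7.79 with 3-NPA and 2.73 and 2.96 in control cells. All 6 arrays of treated cells lay above both control arrays. The signal was 2.01-fold higher with Mn, 2.17-fold higher with MPP+ and 2.70-fold higher with 3-NPA (adjusted p = 0.00737, 0.00369 and 0.000524 in limma). The other 3 probes of Vegfa were called higher in all 3 comparisons too.

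Lox, the lysyl oxidase that crosslinks collagen, was lower with all 3 toxins, as Adm was, with log2 fold changes of -1.41 with Mn, -1.72 with MPP+ and -1.63 with 3-NPA (adjusted p = 0.00271, 0.00156 and 0.000365 in limma). Pgf, placental growth factor, was higher with Mn (0.89, adjusted p = 0.00719 in limma) and with 3-NPA (0.95, adjusted p = 0.00119), although a second probe gave 0.97 with Mn and missed the threshold (adjusted p = 0.0675). Aldoc, a glycolytic aldolase, was lower with all 3 toxins, at -0.99 with Mn, -1.92 with MPP+ and -0.73 with 3-NPA (adjusted p = 0.0110, 0.00161 and 0.00701 in limma). Dusp1, a phosphatase of MAP kinases, was lower with MPP+ (-2.23, adjusted p = 0.000817 in limma) and 3-NPA (-1.18, adjusted p = 0.00108) and stood at -0.49 with Mn (adjusted p = 0.0624). Its level with MPP+ was low, at 0.0427 and 0.0491, and the normexp background correction gave -1.53 there. Ppp1r3c, a glycogen-targeting phosphatase subunit, was called higher with 3-NPA and with neither other toxin (1.97, adjusted p = 0.000524 in limma).

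Of 2 other standard HIF targets, the glucose transporter Slc2a1 missed the threshold against control, at 0.27 with Mn, -0.30 with MPP+ and 0.24 with 3-NPA (adjusted p = 0.117, 0.0688 and 0.0746 in limma). Directly compared, MPP+ was lower than Mn (-0.57, adjusted p = 0.0163 in limma) and 3-NPA higher than MPP+ (0.54, adjusted p = 0.00654). Against control, the test was passed with 3-NPA under quantile normalization (adjusted p = 0.0291 in limma), and with 3-NPA and MPP+ under a trended, robust variance (0.040 and 0.0324). Pdk1, the kinase that blocks pyruvate dehydrogenase, stood at 0.18 with Mn and 0.04 with MPP+ and was lower with 3-NPA (-0.86, adjusted p = 0.0110 in limma).

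**Figure D5:**
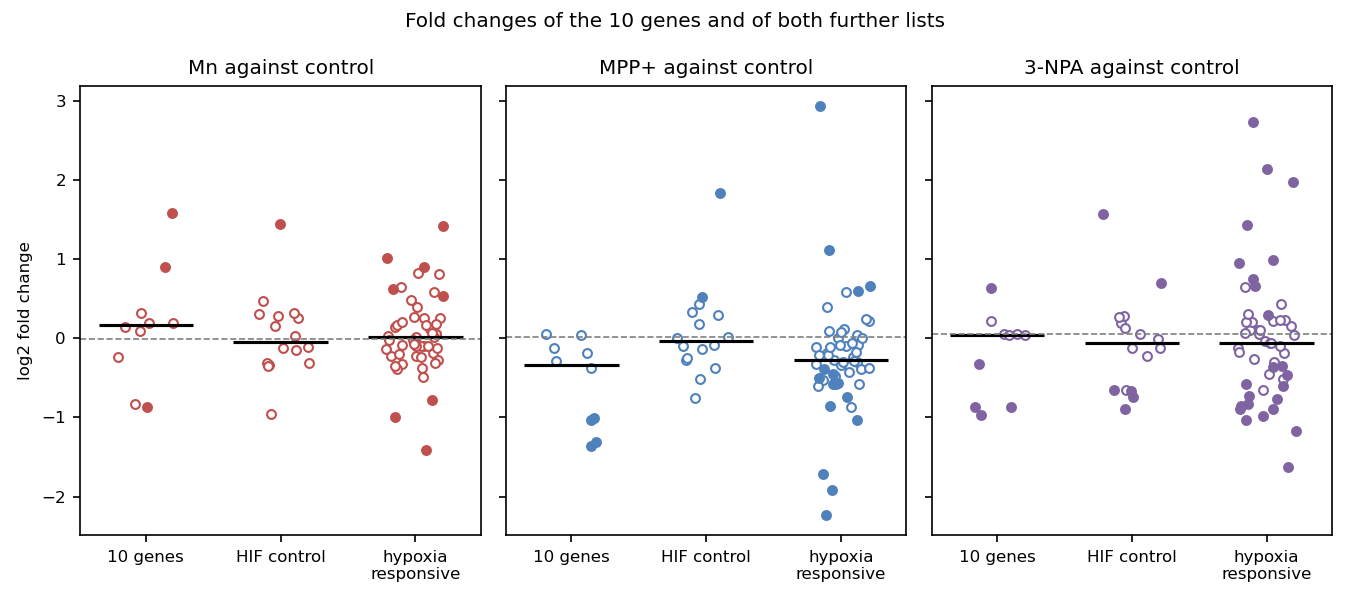
Log2 fold changes against control of the 10 genes, the further genes of HIF control and the further hypoxia-responsive genes, 1 panel per toxin. Filled points passed an adjusted p of 0.05, black bars are the medians of the lists and the dashed line is the median of all genes. With MPP+ the median of the further hypoxia-responsive genes lies at -0.27 and 12 of 51 are called lower, and the highest points, Siah2 and Stc2, are fitted values of genes not well above background in control cells.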

How the data were processed

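The 8 arrays are 1-colour Agilent arrays of N27 cell RNA, 2 per group, grouped by the treatment labels. Agilent Feature Extraction 11.5.1.1 gave the spot intensities, per the file headers. The processed intensity is background-subtracted and detrended within each array, with probe positions on rn4, per the file headers. A value table deposited beside them is in log2, made in a way not given in the sources used here; its columns had medians of -4.30 and -4.31 (Mn), -4.34 and -4.38 (MPP+), -4.08 and -4.16 (3-NPA) and -3.99 and -4.11 (control), and each correlated with its array's log2 processed signal at 0.997 or more. Its 75th percentiles lay at 0.0137 to 0.0259, so its scale was taken as log2 relative to about that percentile; how it was centred further stays unknown, and it served as an alternative.

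For each probe the log2 processed intensity was averaged over spots, leaving out spots marked as outliers (4 spots of these 10 genes), and each array's 75th percentile was subtracted. A probe was kept where more than a share of 0.5 of its spots passed the mark for well above background on each array of 1 or more groups, which left 19460 of 30328 probes, and the brightest kept probe stood for its gene, which gave 16908 genes. Each of the 10 genes is 1 probe, so no choice between probes arose for them. One model of the 4 group means was fitted to all 8 arrays with limma 3.58.1 in R 4.3.3 and eBayes, p-values were adjusted by Benjamini-Hochberg over all genes of a comparison, and an adjusted p below 0.05 was called. Replicate arrays correlated at 0.990 to 0.997 over genes. An exact permutation test of 2 against 2 arrays cannot give a p below 0.333 and was not used. The fit was tested on simulated data.

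The rule for names was all 10 genes, up to 3 called genes of each further list and comparison by smallest p, and 7 genes named whatever their values (Vegfa, Slc2a1, Pdk1, Epas1, Arnt, Vhl, Egln2). One gene that the rule picks is not reported here. The 10 genes, the lists and the rule were chosen with earlier results of these data known, so none of them is independent support. Of the accessions of the 10 probes, 9 matched the RefSeq table, and Egln1 matched by name. Promoters were read from RefSeq on GRCr8 and searched on both strands. Numbers shared by the labels of different groups were checked for pairing. Same-numbered arrays of different groups deviated together at correlations of -0.02 to 0.098, but at 0.50 for Mn with 3-NPA. The same-numbered arrays of Mn and 3-NPA also shared a column of the slide. Those of MPP+ and control shared a column too, and they correlated at 0.02. The fit took all arrays as unpaired, with the replicate block as an alternative. The cause of the correlation of Mn with 3-NPA was not tested. The alternatives tried were other background corrections, scalings, filters, probe rules, moderation, the replicate block, fits of fewer arrays and the deposited table.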

Additional observations from a re-analysis of the deposited data

How the results depend on the processing

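Of the 25 calls of the 10 genes over 6 comparisons, 11 were lost under at least 1 of 20 alternatives and 0 turned direction. The count of these genes called was 5 in place of 3 for 3-NPA against Mn with arrays scaled to their medians, and 0 in place of 3 for Mn against control when only the 4 arrays of the pair were fitted, where Adm, Bhlhe40 and Egln3 had adjusted p-values of 0.0804, 0.0530 and 0.0844 in limma. Leaving out 1 array gave 3 to 5 called genes for 3-NPA against control (3 without the first 3-NPA array) and 2 to 6 for 3-NPA against MPP+ (2 without any single MPP+ or 3-NPA array), and the other comparisons stayed within 1.5 times of their counts. Over all genes, leaving out 1 array moved the count of calls over a wide range: 568 to 1275 for Mn against control (1295 with all arrays), 476 to 2383 for MPP+ (2357), 3595 to 6708 for 3-NPA (6474), 208 to 1705 for MPP+ against Mn (1538), 2135 to 5334 for 3-NPA against Mn (4842) and 2262 to 5766 for 3-NPA against MPP+ (5239). Other settings gave 6 (the 4 arrays of the pair) to 7047 (dim probes kept) for Mn, 977 to 8834 for MPP+, 5036 to 11924 for 3-NPA, 308 to 2349 for MPP+ against Mn, 3433 to 5356 for 3-NPA against Mn and 3881 to 6706 for 3-NPA against MPP+. Scaling to array medians moved the median of all genes to 0.13 for MPP+ against control, -0.09 for 3-NPA against control, -0.16 for 3-NPA against Mn and -0.23 for 3-NPA against MPP+, and the share of calls that were higher to 69.9% with Mn (58.8%), 71.5% with MPP+ (53.6%) and 42.6% with 3-NPA (58.2%). With quantile normalization that share was 73.0% with Mn and 64.5% with MPP+, and with normexp 39.8% with MPP+.

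Values that turned sign were uncalled, and the cause was not tested. With normexp they were Car9 at -0.043 and Egln3 at 0.00469 (MPP+ against control), Ndrg1 at -0.050 (3-NPA against control), Bnip3 at 0.015 (3-NPA against Mn) and Pdk1 at -0.081 (MPP+ against control). With quantile normalization they were Car9 at -0.059, Egln1 at -0.049 and Ndrg1 at -0.064 (3-NPA against control), Adm at 0.096 and Bnip3 at 0.018 (3-NPA against Mn) and Car9 at -0.18 (3-NPA against MPP+). With array medians they were Bnip3 at -0.10, Car9 at -0.090, Egln1 at -0.090 and Ndrg1 at -0.10 (3-NPA against control), and Angptl4 at -0.084, Bhlhe40 at -0.079, Car9 at -0.26 and Egln1 at -0.013 (3-NPA against MPP+). Leaving out 1 array gave, against control, Bnip3 -0.12 to 0.29, Ndrg1 -0.67 to 0.20 and Pdk1 -0.043 to 0.41 with Mn, Bhlhe40 -0.040 to 0.11, Car9 -0.077 to 0.18, Pdk1 -0.19 to 0.26 and Vhl -0.075 to 0.10 with MPP+, and Bnip3 -0.17 to 0.25, Car9 -0.077 to 0.18, Egln1 -0.015 to 0.12 and Ndrg1 -0.22 to 0.31 with 3-NPA. Between toxins it gave Car9 -0.31 to 0.031 for MPP+ against Mn, and for 3-NPA against Mn Adm -0.00692 to 0.00246, Car9 -0.31 to 0.031, Hif1a -0.35 to 0.052 and Ndrg1 -0.16 to 0.72. For 3-NPA against MPP+ it gave Car9 -0.027 to 0.027.

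With the replicate block, which pairs same-numbered arrays, 4, 4 and 5 of the 10 genes were called with Mn, MPP+ and 3-NPA against control, 6 for MPP+ against Mn, 3 for 3-NPA against Mn and 5 for 3-NPA against MPP+, and Hif1a with Mn had an adjusted p of 0.0195 in limma. Over all genes the block gave 997, 2046 and 6294 calls against control and 1219, 4552 and 5066 between toxins. With 2 arrays per group, an uncalled gene may have changed by any amount within its printed interval. Signals near background limit Siah2, Arnt and Stc2, which were not well above it on the control arrays.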

Other observations

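The genes in this paragraph were picked from the further hypoxia-responsive genes after their values were seen. Stc2, which encodes the secreted glycoprotein stanniocalcin 2, was at 0.211 and 0.237 with MPP+, 0.211 and 0.181 with 3-NPA and 0.0370 and 0.0235 in control cells, where it was not well above background. Set against the lowest signal well above background on each control array, the level was 5.39-fold higher with MPP+ and 4.70-fold higher with 3-NPA. As for Siah2, these are no firm minimums. Stc2 passed the filter on dim probes through the toxin groups alone, so its call is no independent support. Ddit4, an inhibitor of mTORC1 signalling, was higher with each toxin, at log2 fold changes of 0.62 with Mn, 0.66 with MPP+ and 0.66 with 3-NPA (adjusted p = 0.0297, 0.0178 and 0.00676 in limma), opposite in sign to Adm. Slc16a3, the lactate exporter MCT4, was at 33.7 and 35.1 with MPP+, 34.8 and 34.1 with 3-NPA and 67.9 and 73.4 in control cells. Like Angptl4 it was lower with both (-1.04 and -1.03, adjusted p = 0.00250 and 0.000660 in limma), and with Mn it stood at -0.35 (adjusted p = 0.0708).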
